A study of Mus musculus with 22 samples.

Results

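Long noncoding RNA (lncRNA) genes were studied here through the DNA methylation of their promoters in the MMTV-PyMT mouse, in which mammary tumors arise in 4 stages between weeks 6 and 12. A promoter entered when the gene lies on an autosome, is annotated as lncRNA in RefSeq (genome build mm10), has a curated transcript whose start site (TSS) lies more than 2 kb from every protein-coding TSS, and has at least 3 CpG positions within 2 kb of that TSS that were covered in all 22 samples. Of 2249 lncRNA genes placed in this way, 628 had enough covered positions, out of 15282 autosomal promoters of all kinds in the same data. The 628 regions held 10371 distinct CpG positions, each strand of a CpG counted as its own position, with a median of 8 positions per region and a median of 73.0 reads per position. In 28 regions at least 1 position was shared with another of the 628.

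The tumor mice were daughters of transgenic males on the FVB/N background and FVB females, and carried 1 copy of a transgene that expresses the polyoma virus middle T antigen from the mouse mammary tumor virus promoter, which is active in mammary epithelium. They were sampled at week 6 (hyperplasia, 2 mice), week 8 (adenoma/MIN, mammary intraepithelial neoplasia, 3 mice), week 10 (early carcinoma, 3 mice) and week 12 (late carcinoma with lung metastasis, 2 mice). The controls were FVB females without the transgene, 3 mice at each of the same ages. The study took 3 mice per strain and age, and removed 2 outlier samples after checks of coverage, methylation percentage and principal components. The samples here lack 1 PyMT mouse at week 6 and 1 at week 12. Statements below that the strains did not overlap refer to the samples left after this removal. DNA came from bulk tumor or bulk gland and was measured by enhanced reduced representation bisulfite sequencing (ERRBS), which reads methylation at CpGs in CpG-rich fragments. Each sample held between 1314077 and 1435757 positions, at a mean coverage of 60.2 to 79.2 reads.

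A lncRNA is a long transcript with no evident protein product. Some act in the nucleus on chromatin or on neighboring genes, some carry a microRNA or a small nucleolar RNA (snoRNA) in an intron or exon, and for most no function is known. Promoters with many CpGs (CpG islands) are as a rule unmethylated in normal tissue, whereas promoters with few CpGs are often methylated in the cell types that do not use them. A high methylation level at a promoter commonly goes with low transcription, which was not measured in these samples.

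The promoters of the largest gains and losses are shown first, because their CpGs carry the differences described afterwards. Each line is a 150-base stretch of the mm10 reference, written 5′ to 3′ on the strand of the gene, and the capitals mark CpGs that were covered in all 22 samples.
Gm13205: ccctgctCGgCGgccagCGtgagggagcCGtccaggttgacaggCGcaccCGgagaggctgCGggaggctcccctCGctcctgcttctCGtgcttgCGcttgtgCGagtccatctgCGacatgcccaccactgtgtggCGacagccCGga
Gm15326: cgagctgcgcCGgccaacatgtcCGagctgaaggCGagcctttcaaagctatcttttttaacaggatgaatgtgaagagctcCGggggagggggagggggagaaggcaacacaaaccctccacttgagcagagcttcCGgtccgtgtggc
3930402G23Rik: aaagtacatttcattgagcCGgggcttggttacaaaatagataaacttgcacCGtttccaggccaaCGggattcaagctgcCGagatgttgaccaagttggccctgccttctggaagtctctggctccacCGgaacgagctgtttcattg
4933424L21Rik: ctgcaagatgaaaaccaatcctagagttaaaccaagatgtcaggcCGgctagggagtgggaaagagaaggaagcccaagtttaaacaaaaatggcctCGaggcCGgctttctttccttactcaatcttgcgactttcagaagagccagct
Gm14040: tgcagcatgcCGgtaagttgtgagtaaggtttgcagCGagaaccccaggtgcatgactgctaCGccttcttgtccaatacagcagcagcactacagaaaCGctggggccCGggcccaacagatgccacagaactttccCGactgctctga
Gm33100: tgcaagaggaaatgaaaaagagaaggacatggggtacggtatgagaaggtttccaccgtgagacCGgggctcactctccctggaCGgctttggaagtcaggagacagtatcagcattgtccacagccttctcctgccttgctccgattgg
The Gm13205 stretch is chr4:148952007-148952156 on the minus strand and begins 166 bases after the TSS. Its 14 covered CpGs, read at 16 positions, lay between 29.5% and 47.5% in FVB and between 77.8% and 90.6% in PyMT samples. The Gm15326 stretch is chr13:111868045-111868194 on the plus strand, with 7 positions at 2.35% to 8.16% in FVB and 19.6% to 59.4% in PyMT samples. The 3930402G23Rik stretch is chr8:10928453-10928602 on the minus strand and ends 4 bases after the TSS, and its 5 positions lay at 26.4% to 32.9% in FVB and 55.1% to 67.7% in PyMT samples. Among the losses, the 4933424L21Rik stretch is chr11:57648847-57648996 on the minus strand, with 3 positions at 75.8% to 83.3% in FVB and 16.9% to 24.4% in PyMT samples. The Gm14040 stretch is chr2:129516023-129516172 on the minus strand, just upstream of the TSS, with 7 positions at 60.4% to 76.5% in FVB and 13.5% to 20.3% in PyMT samples. The Gm33100 stretch is chr5:96879275-96879424 on the plus strand and spans the TSS, with 2 positions at 83.4% and 89.8% in FVB that stood at 32.9% and 46.0% in PyMT samples.

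The lncRNA promoters were a class of mixed methylation, with a median above that of coding promoters. Their median level in the FVB glands was 39.9% (quartiles 3.47% and 72.7%), whereas the 13803 coding promoters had a median of 0.426% and the 851 promoters of lncRNAs within 2 kb of a coding TSS had one of 0.356%. A window of 500 bp with the base composition of a CpG island (GC over 55%, observed to expected CpG over 0.75) was present in 26.1% of the lncRNA promoters and in 77.0% of the coding promoters. Averaged over both strains, 39.0% of the lncRNA promoters lay under 20% methylation, 44.4% between 20% and 80%, and 16.6% at 80% or more. The spread between mice of one strain and week was largest for the middle class, with a median SD of 4.78 points among PyMT and 4.47 points among FVB samples, against 0.548 and 0.488 points for promoters under 20%.

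**Figure D1:**
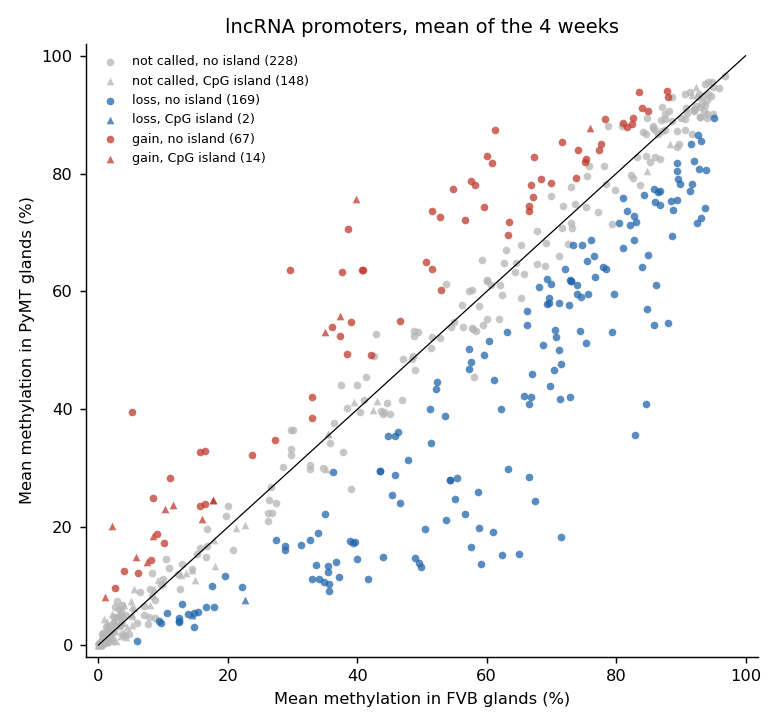
Mean methylation (%) of each of the 628 lncRNA promoters, FVB glands on the x axis and PyMT glands on the y axis, each the mean of the 4 weeks, with triangles for promoters with a CpG island, circles for the rest, and color for promoters called as gain or loss over the 4 stages. The 171 losses and 81 gains lie mainly among promoters of intermediate level, and 169 of the losses are circles.

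Over the 4 stages together, 171 lncRNA promoters lost and 81 gained methylation in PyMT glands. These are 27.2% and 12.9% of the 628, beside 5.73% and 3.53% of all 15279 regions tested, and beside 4.87% and 3.20% of the coding promoters. A region was called when the edgeR quasi-likelihood test on its summed methylated and unmethylated reads gave a Benjamini-Hochberg adjusted p under 0.05 over all regions and its mean methylation differed by at least 5 points. The median promoter of the whole class moved little, by -0.13 points, and the median size of the difference in either direction was 3.82 points, against 0.142 points for coding promoters. All 10 PyMT samples lay above all 12 FVB samples in 32 lncRNA promoters (5.10%, beside 4.49% of all regions), and all lay below in 82 (13.1%, beside 5.14%). Without FVB week 8 replicate 2, which deviated most from its group among the FVB samples (median 2.10 points over the 628 regions), the calls were 169 losses and 82 gains. In 121 of the 171 losses and 48 of the 81 gains, every covered position of the region differed in the same direction. The calls rest on the mean of these same positions, so such agreement follows in part from the choice. It was not counted over all regions.

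Nearly all losses lay in promoters without a CpG island, and so did most gains. Of the 464 lncRNA promoters without an island, 169 lost (36.4%) and 67 gained methylation (14.4%), while of the 164 with an island 2 lost (1.22%) and 14 gained (8.54%). Coding promoters also differed by island. Of the 3171 without an island 18.5% lost and 9.18% gained methylation, and of the 10632 with an island 0.79% lost and 1.41% gained. The mean over the promoters without an island was 47.1% to 49.4% in the PyMT samples and 51.4% to 53.4% in the FVB samples, so that the strains did not overlap. Over the island promoters the mean was 7.58% to 9.25% in PyMT and 7.26% to 7.68% in FVB samples, with the week 6 PyMT samples at 7.58% and 7.85% and the week 12 samples at 9.20% and 9.25%.

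The contrast with coding promoters varied with composition and level, and was not tested within these classes. Of the lncRNA promoters without an island and between 20% and 80% methylated, 127 of 266 (47.7%) lost and 46 (17.3%) gained methylation. The coding promoters of the same kind numbered 980, of which 391 (39.9%) lost and 185 (18.9%) gained. Below 20% and without an island, losses took 17.2% of 99 lncRNA promoters and 5.34% of 1834 coding promoters. Gains took 9.09% and 4.25%. The levels in this class were unlike, with an FVB median of 4.65% for the lncRNA and 1.41% for the coding promoters. A region under 5% in FVB glands cannot fall by the 5 points that a called loss needs. At 80% or more and without an island, losses took 25.3% of 99 lncRNA promoters and 27.7% of 357 coding promoters, and gains 12.1% and 7.84%. Below 20% and with an island, gains took 8 of 146 lncRNA promoters (5.48%) and 95 of 10333 coding promoters (0.919%), and losses 1.37% and 0.494%. Here the FVB medians were 0.609% and 0.228%. Of the 13 lncRNA promoters with an island between 20% and 80%, 5 gained and 0 lost methylation, beside gains in 19.5% and losses in 11.1% of 262 coding promoters. In 463 of the 628 regions no covered position lay in soft-masked (repeat) sequence, and of these 131 lost (28.3%) and 62 gained methylation (13.4%). Of the 8567 coding promoters of this kind, 6.19% lost and 3.75% gained. Regions with few positions gave many of the calls. Losses and gains numbered 39 and 7 among the 83 regions of 3 positions, with an FVB median of 67.2%. They numbered 103 and 46 among the 285 of 4 to 9 positions, with a median of 60.1%. Among the 260 of 10 or more they were 29 and 28, with a median of 3.4%. The groups thus also differed in level. Coding promoters were not counted by number of positions.

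Promoters of epithelial and adipocyte marker genes differed between the strains too. The 8 epithelial marker promoters (Krt8, Krt18, Krt19, Epcam, Cdh1, Cldn3, Cldn4 and Elf5) were all covered, and their mean methylation was 4.53% to 7.19% in PyMT samples and 12.6% to 18.5% in FVB samples, with losses called in Krt18, Cldn4 and Elf5. The 5 of 8 adipocyte marker promoters that were covered had a mean of 37.8% to 44.6% in PyMT and 44.9% to 51.1% in FVB samples. Among them Lep and Cidec lost methylation, with differences of -14.3 and -21.6 points, whereas the differences of Pparg, Lipe and Plin1 were above 0, at 1.12, 2.06 and 0.622 points, and under the threshold. In bulk tissue a change in the shares of cell types and a change of methylation within a cell type cannot be told apart, and the part of cell composition in the lncRNA results was not tested.

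The largest gain was at Gm13205, an uncharacterized lncRNA whose TSS lies inside Casz1, a zinc finger transcription factor gene, on the opposite strand. Its region (chr4:148950322-148954322, 60 positions, with an island) stood at 34.9%, 39.7% and 45.7% in the lowest, median and highest of the 12 FVB samples and at 64.3%, 76.9% and 82.2% in the 10 PyMT samples. The strains did not overlap at any age, and the PyMT mean was 68.3% ± 5.74 (SD, n = 2) at week 6 and 82.1% ± 0.02 (n = 2) at week 12 while the FVB mean was 42.1% ± 2.12 and 38.9% ± 3.49 (n = 3 each). The difference averaged 35.8 points (edgeR adjusted p = 3.01e-11). The region held 2 opposite parts. The 55 positions from 725 bases before to 1148 bases after the TSS were all higher in PyMT samples, with a median of 82.2% against 40.5% in FVB, whereas the 5 positions from 1634 to 1442 bases before the TSS were all lower, with a median of 22.4% against 65.0%.

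Gm15326, an uncharacterized lncRNA between genes on chromosome 13 with Map3k1, a kinase of the JNK pathway, as its nearest coding gene 49667 bases away, was nearly unmethylated in controls. Its 7 positions averaged 0.97%, 4.47% and 10.2% in the lowest, median and highest FVB sample and 21.3%, 40.0% and 59.5% in PyMT samples. The groups did not overlap, and the spread was wide among PyMT mice of the same age, with 46.5% ± 14.7 (SD, n = 3) at week 10. The average difference was 34.4 points (edgeR adjusted p = 2.00e-09), with 21.4 points at week 6 and 44.0 points at week 12.

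3930402G23Rik, an uncharacterized lncRNA 80472 bases from the insulin receptor substrate gene Irs2, showed its gain within 126 bases upstream of the TSS. Its 5 positions averaged 18.8%, 30.0% and 39.5% in the lowest, median and highest FVB sample and 49.8%, 66.0% and 75.5% in PyMT samples. The PyMT mean was 49.99% ± 0.24 (SD, n = 2) at week 6 and 69.9% ± 3.76 (n = 2) at week 12, and the FVB mean stayed between 29.5% and 30.1% at all ages. The average difference was 34.0 points (edgeR adjusted p = 1.10e-09).

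Parvaos is transcribed opposite to Parva, which encodes the focal adhesion protein alpha-parvin. Its 7 positions averaged 24.8% to 55.5% in FVB samples (median 38.7%) and 57.9% to 82.1% in PyMT samples (median 72.8%), with no overlap, and the average difference was 32.1 points (edgeR adjusted p = 8.32e-09). The remaining 4 of the 8 largest gains were 4930522O17Rik (26.1 points), Gm34307 (25.6 points), 4933401H06Rik (22.9 points), which lies opposite to the zinc transporter gene Slc39a8, and 4933414I15Rik (22.8 points). Samples of the strains overlapped in 4930522O17Rik, where 3 positions at a mean of 23.4 reads had medians of 64.6% in FVB and 86.8% in PyMT samples, and in 4933414I15Rik, with 19.8% to 56.3% and 48.1% to 76.6%. In Gm34307 and 4933401H06Rik every PyMT sample lay above every FVB sample.

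The largest loss was at 4933424L21Rik, an uncharacterized lncRNA transcribed opposite to Galnt10, an enzyme of mucin-type O-glycosylation, 4046 bases from its TSS. Its 4 positions averaged 60.0%, 71.9% and 79.5% in the lowest, median and highest FVB sample and 13.2%, 17.8% and 29.1% in PyMT samples. The PyMT samples were low from the first stage on, with means of 15.4% ± 0.30 (SD, n = 2) at week 6, 20.8% ± 7.36 (n = 3) at week 8, 21.2% ± 3.87 (n = 3) at week 10 and 16.03% ± 3.94 (n = 2) at week 12. The region fell by 53.1 points on average (edgeR adjusted p = 9.46e-12), and the Galnt10 promoter itself stood at 0.147% in FVB and 0.095% in PyMT samples.

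Gm14040 lies on the same strand inside the annotated span of F830045P16Rik, and its 9 positions were lower in PyMT samples at every one of them, without overlap of any sample. The region stood at 52.9%, 66.4% and 72.4% in the lowest, median and highest FVB sample and at 10.2%, 14.5% and 26.4% in PyMT samples. It fell by 49.6 points (edgeR adjusted p = 9.46e-12). Gm33100, 85957 bases from the annexin gene Anxa3, fell by 47.3 points (edgeR adjusted p = 8.71e-10), from 69.1% to 93.8% in FVB samples to 26.6% to 56.6% in PyMT samples over 3 positions.

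Sox5os3 is transcribed opposite to Sox5, a transcription factor gene of the SOX family. Its 6 positions averaged 41.1% to 78.6% in FVB samples (median 60.6%) and 6.65% to 26.0% in PyMT samples (median 10.6%). The FVB mean was 46.7% ± 5.93 (SD, n = 3) at week 6 and 68.7% ± 3.79 (n = 3) at week 12, and the PyMT mean 15.0% ± 5.89 (n = 2) and 8.58% ± 2.58 (n = 2), so the difference was -31.8 points at week 6 and -60.2 points at week 12. The region fell by 45.4 points on average (edgeR adjusted p = 3.20e-09). The other 4 of the 8 largest losses were 4933406J09Rik (-47.2 points), opposite to the BCL2 family gene Bcl2l14, Gm1587 (-43.6 points), Gm16254 (-43.0 points), opposite to Lrp11, and 9330188P03Rik (-41.8 points), and in each of them every PyMT sample lay below every FVB sample.

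An exact permutation test of the average difference, two-sided, with strain labels permuted within week (40000 arrangements), gave p = 2.5e-05, the smallest it can give, for 14 of these 16 regions, and p = 7.5e-05 for 4930522O17Rik and 4933414I15Rik. These 16 were chosen by their size in the same comparison, so small p-values follow from the choice and are no separate evidence.

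**Figure D2:**
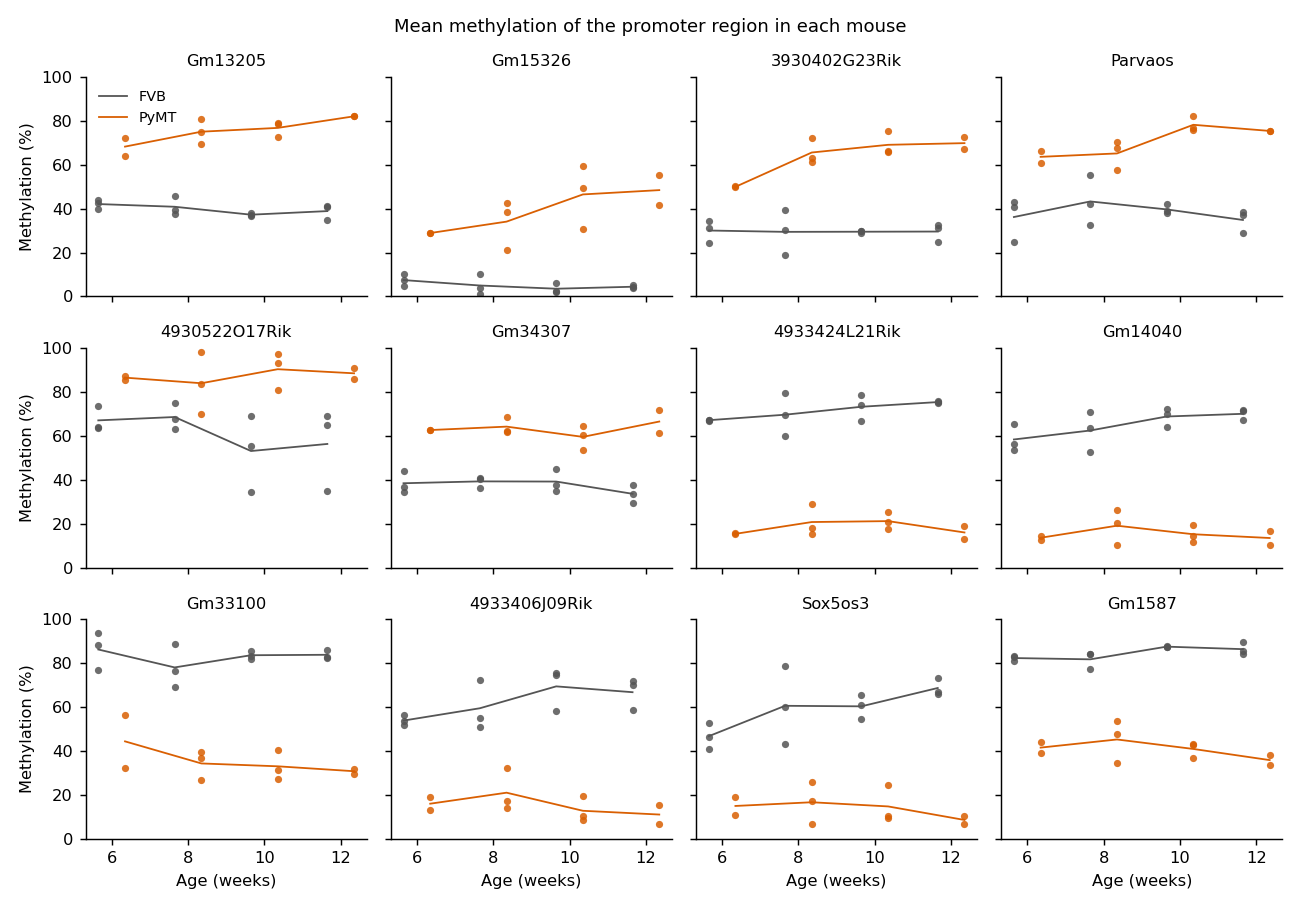
Mean methylation (%) of the promoter region against age (weeks) for the 6 largest gains and the 6 largest losses, with 1 point per mouse and lines through the mean of each strain and week (FVB gray, PyMT orange). The PyMT points of Gm13205 lie between 64.3% and 82.2%, above all FVB points, and those of 4933424L21Rik between 13.2% and 29.1%, below them.

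The promoters of the nearest coding genes were called about as often as coding promoters in general, of which 3.20% gained and 4.87% lost methylation. A covered nearest coding promoter was found for 69 of the 81 gains, of which 1 gained (1.45%) and 3 lost methylation (4.35%). It was found for 125 of the 171 losses, of which 5 gained (4%) and 8 lost (6.4%). For the 302 lncRNA promoters that were not called, 9 of the nearest coding promoters gained (2.98%) and 12 lost methylation (3.97%). These shares were not tested against each other. Beside the 3 largest gains, the promoters of Casz1, Map3k1 and Irs2 all lay under 1% methylation in both strains.

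Lists of known lncRNAs were described by their counts. Of 12 lncRNAs listed as imprinted, which are transcribed only or mainly from 1 parental allele, 6 were covered (H19, Meg3, Kcnq1ot1, Airn, Peg13 and Nctc1). Of these 6, 0 were called at any stage or over all 4. Over the 4 stages, 12.9% of the 628 lncRNA promoters and 3.53% of all regions gained methylation, and 27.2% and 5.73% lost it. With only 6 promoters, 0 calls cannot be told apart from the share of all regions. The 6 are described further by their levels. Their FVB median was 42.7%, and their differences ran from -5.05 points in Nctc1 (edgeR adjusted p = 0.208) to 1.74 points in Kcnq1ot1 (adjusted p = 0.936). The region of Kcnq1ot1, the antisense RNA of the Kcnq1 domain, held 19 positions at 34.0% to 43.6% in FVB and 30.6% to 47.6% in PyMT samples, with the groups overlapping. At 3 positions, Nctc1 ranged from 45.6% to 65.4% in FVB and from 44.6% to 60.9% in PyMT samples, again with overlap.

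Of 41 lncRNAs that have been linked to cancer, 24 were covered, with 4 losses and 0 gains over the 4 stages. The losses were 16.7% of the list, beside 27.2% of the 628 lncRNA promoters and 5.73% of all regions. Gains took 12.9% of the 628 and 3.53% of all regions. Mir205hg, the host gene of miR-205, a microRNA of epithelial cells that represses Zeb1 and Zeb2, had the lowest difference of the list. Its 4 positions, between genes on chromosome 1, averaged 50.5%, 65.7% and 82.3% in the lowest, median and highest FVB sample and 17.7%, 28.2% and 40.1% in PyMT samples. No sample overlapped, and the PyMT mean was 31.6% ± 5.39 (SD, n = 2) at week 6 and 23.1% ± 7.71 (n = 2) at week 12, against 63.3% ± 11.4 and 71.9% ± 11.7 (n = 3 each) in FVB. The region fell by 38.1 points (edgeR adjusted p = 2.54e-07).

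Bvht, known as Braveheart for its role in the commitment of heart muscle precursors, fell by 25.3 points (edgeR adjusted p = 1.66e-09), from 29.7% to 44.7% in FVB samples to 3.65% to 21.4% in PyMT samples. Hotair, transcribed from the Hoxc cluster and known for its contact with the Polycomb complex PRC2, fell by 10.2 points (adjusted p = 4.73e-05). Its samples overlapped, at 6.46% to 26.3% in FVB and 3.91% to 12.9% in PyMT, and the calls held at weeks 6, 8 and 12 but not at week 10, where the difference was -8.36 points (adjusted p = 0.158). Morrbid, which controls the lifespan of myeloid cells through its neighbor Bcl2l11, fell by 5.28 points (adjusted p = 1.23e-07) from a control range of 2.59% to 10.6% to a PyMT range of 0% to 2.13%. Without FVB week 12 replicate 1 the difference was -4.88 points, under the threshold of 5 points, so that this call rests on that mouse, whereas Mir205hg, Bvht and Hotair were called with any 1 sample left out. The upper end of the list was Lncenc1, which is known from embryonic stem cells, at 4.07 points (adjusted p = 0.00130), which is also under the threshold.

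Several widely studied lncRNAs of this list had promoters that were close to unmethylated in both strains. Malat1 and Neat1, which are nuclear RNAs, stood at 0.266% and 0.236% in FVB and at 0.107% and 0.164% in PyMT glands. Pvt1, the neighbor of Myc, stood at 0.032% and 0.026%, Norad, which binds Pumilio proteins, at 0.304% and 0.178%, and Dleu2, the host of miR-15a and miR-16-1, at 0.114% and 0.123%. The list median was -0.04 points, beside -0.01 points over all regions. These 5 names were chosen after their values were seen.

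Of 44 lncRNAs on a list drawn up for neighbors of developmental transcription factor genes, 10 were covered, with 2 gains and 1 loss, that of Hotair. The gains were 20% of the list, beside 12.9% of the 628 lncRNA promoters and 3.53% of all regions. The loss was 10%, beside 27.2% and 5.73%. Both gains were at microRNA host genes whose nearest coding genes are not of that kind, namely the mitochondrial DNA polymerase gene Polg, 47524 bases from Mir9-3hg, and Cypt12, 158523 bases from Mir124-2hg. Mir9-3hg, host of a miR-9 precursor best known from neurons, held 71 positions in an island. It stood at 6.65%, 7.71% and 8.38% in the lowest, median and highest FVB sample and at 9.30%, 13.8% and 19.2% in PyMT samples, without overlap. The gain of 6.50 points (edgeR adjusted p = 7.21e-07) was 2.62 points at week 6 (adjusted p = 0.537) and 10.8 points at week 12 (adjusted p = 0.000217). At the most 5′ TSS of the gene the difference was 0.59 points. Mir124-2hg, host of a precursor of the neuronal miR-124, gained 7.17 points (adjusted p = 0.00374), with the groups overlapping at 5.61% to 15.2% in FVB and 11.0% to 32.2% in PyMT samples.

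Among the 22 covered host genes of snoRNAs and microRNAs, 3 gained and 2 lost methylation, including Mir9-3hg, Mir124-2hg and Mir205hg. Gains were 13.6% of these genes, beside 12.9% of the 628 lncRNA promoters and 3.53% of all regions. Losses were 9.09%, beside 27.2% and 5.73%. Snhg11, a snoRNA host expressed chiefly in brain, gained 8.74 points (edgeR adjusted p = 1.33e-05), from 0.65% to 8.81% in FVB samples to 8.11% to 20.3% in PyMT samples. Snhg17, which lies on the same chromosome as Snhg11 with the same nearest coding gene, Ralgapb, fell by 9.37 points over 8 positions (adjusted p = 1.80e-05), from 10.1% to 20.3% in FVB samples to 3.42% to 7.58% in PyMT samples. Within 500 bp of its TSS the difference was 0.15 points (adjusted p = 0.575). The median difference of the 22 host genes was -0.01 points.

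**Figure D3:**
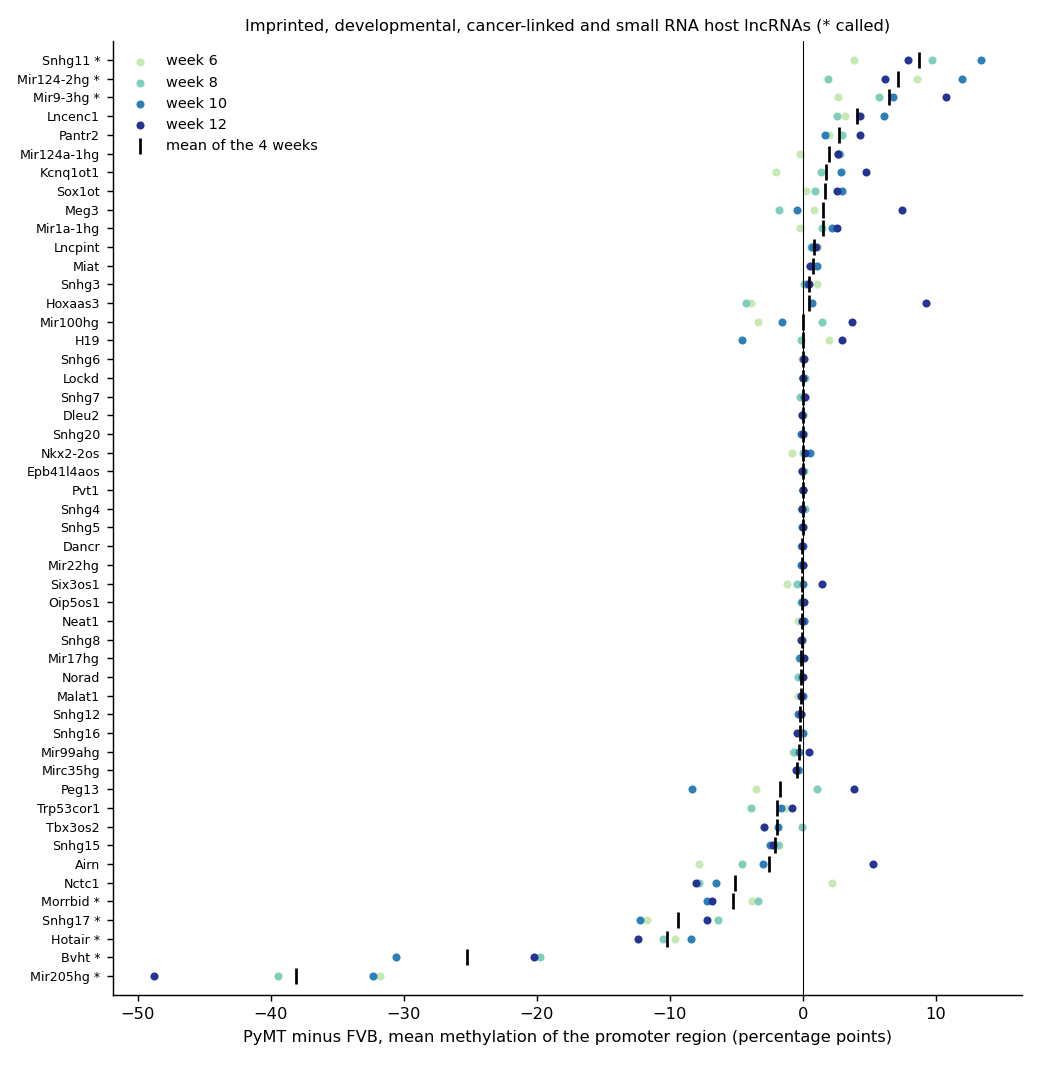
Difference in mean promoter methylation (PyMT minus FVB, percentage points) for the covered members of the 4 lists, 1 row per gene, with a point for each week and a bar for the mean of the 4 weeks, and an asterisk for genes called over the 4 stages. Most rows lie at 0, and the rows that stand away from it run from Mir205hg at -38.1 points to Snhg11 at 8.74 points.

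More lncRNA promoters were called at the carcinoma stages than at hyperplasia, in both directions. At hyperplasia 12 gained (1.91%, beside 0.707% of all regions) and 70 lost methylation (11.1%, beside 2.07%). At adenoma/MIN 34 gained (5.41%, beside 1.83%) and 96 lost (15.3%, beside 3.1%), at early carcinoma 53 gained (8.44%, beside 2.99%) and 133 lost (21.2%, beside 4.25%), and at late carcinoma 51 gained (8.12%, beside 3.42%) and 114 lost (18.2%, beside 3.84%). The stages with 3 PyMT mice and those with 2 differ in the precision of these counts. Single mice moved them: without PyMT week 6 replicate 1 the hyperplasia counts were 2 gains and 23 losses, and the losses were 44 without PyMT week 6 replicate 2 and 39 without FVB week 6 replicate 3. At adenoma/MIN the counts were 18 gains and 61 losses without PyMT week 8 replicate 3 and 22 gains without FVB week 8 replicate 2, and at late carcinoma 31 gains and 66 losses without PyMT week 12 replicate 1.

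Most promoters called at the first stage were called at the last, among lncRNA promoters and among all regions. Of the 12 gains at hyperplasia, 11 were gains at late carcinoma (91.7% of the first list and 21.6% of the last), and of the 70 losses 58 were (82.9% and 50.9%). Over all regions these shares were 88.9% and 18.4% for gains, and 87.3% and 47.0% for losses. A gain was called at all 4 stages in 9 lncRNA promoters (1.43%, beside 0.556% of all regions) and a loss in 53 (8.44%, beside 1.6%). Only at the carcinoma stages 30 gains (4.78%, beside 2.32%) and 51 losses (8.12%, beside 1.83%) were called. Among the promoters called over the 4 stages, the median gain was 7.86, 9.69, 12.1 and 13.2 points at weeks 6, 8, 10 and 12, and the median loss -12.5, -12.2, -18.4 and -15.7 points. The size at week 12 exceeded that at week 6 in 67 of the 81 gains and in 129 of the 171 losses, which was not counted over all regions.

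The change of the difference at the malignant transition, weeks 10 and 12 against weeks 6 and 8, was tested. The tests work on the log ratio of methylated to unmethylated reads. A change on that scale can differ from a change in points. By edgeR's quasi-likelihood test 0 lncRNA promoters passed in either direction, as did 0% of all regions for gain and 0% for loss, and limma also gave 0. At an unadjusted p under 0.05 there were 75 lncRNA promoters (11.9%, beside 8.78% of all regions) by edgeR and 83 by limma, and 24 of the former gained and 29 lost at least 5 points. The smallest adjusted p among the lncRNA promoters was 0.123 by limma and 0.176 by edgeR, the latter at Unc45bos, which lies opposite to the myosin chaperone gene Unc45b and was singled out after its values were seen. Its 172 positions averaged 1.51% ± 0.14 (SD, n = 2), 3.16% ± 0.67 (n = 3), 5.41% ± 2.34 (n = 3) and 7.78% ± 1.17 (n = 2) in PyMT samples from week 6 to week 12, while FVB means lay between 0.746% and 0.905%. The promoter of its nearest coding gene Slfn5, 17966 bases away, gained 9.0 points over the 4 stages (edgeR adjusted p = 4.77e-05).

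Single positions were also tested as in the methods of the study, with a position called a differentially methylated cytosine (DMC) at q under 0.01 and a difference of at least 10 points. The share of the 10371 lncRNA promoter positions that were hypermethylated was 2.66% at hyperplasia, 4.55% at adenoma/MIN, 6.48% at early carcinoma and 7.31% at late carcinoma, beside 2.54%, 3.21%, 4.25% and 4.27% of all 1115690 autosomal positions. The hypomethylated share was 6.06%, 6.21%, 7.89% and 7.25%, beside 5.98%, 6.94%, 8.32% and 8.41%. Hypomethylated DMCs thus took a share close to that of all positions at hyperplasia and below it at the later stages, and hypermethylated DMCs a share close to it at hyperplasia and above it at the later stages, with 758 hypermethylated and 752 hypomethylated positions at late carcinoma. In coding promoters the shares at late carcinoma were 1.73% and 1.01%.

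At late carcinoma 165 lncRNA promoters held a hypermethylated DMC, 256 a hypomethylated DMC, 35 both and 242 neither. These counts per promoter were not set beside those of other promoters. Positions called in the same direction at all 4 stages numbered 146 for gain (1.41%, beside 1.07% of all positions), in 50 promoters, and 385 for loss (3.71%, beside 3.28%), in 142 promoters. Both shares lay close to those of all positions. This test takes reads as its units and does not use the spread between mice, which the region test does.

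**Figure D4:**
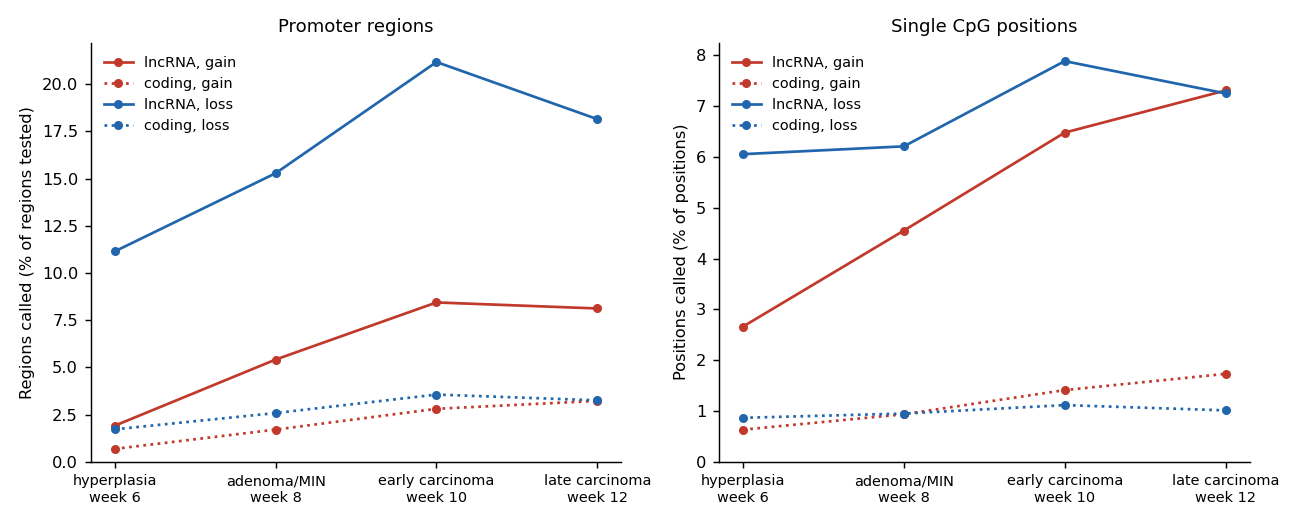
Share (%) of promoter regions (left) and of single CpG positions (right) called in PyMT against FVB glands at each stage, with solid lines for lncRNA promoters, dotted lines for coding promoters, red for gain and blue for loss. The lncRNA lines lie above the coding lines at every stage, and at late carcinoma 8.12% of the lncRNA regions gained and 18.2% lost methylation.

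The mean differences varied with the distance from the TSS, which was not tested. Positions within 250 bases downstream of the TSS had a mean of 11.2% in FVB and 11.5% in PyMT glands, and those 1500 to 1250 bases upstream 39.2% and 35.5%. At week 6 the mean difference was negative in every bin of 250 bases, from -0.26 to -3.92 points. At week 12 it was positive between 750 bases upstream and 500 bases downstream, with values from 0.07 to 1.77 points, and again in the bin from 1500 to 1750 bases downstream, at 1.20 points, and negative in the rest, down to -2.87 points. Hypermethylated DMCs at week 12 took the highest share, 14.0% of 342 positions, in the bin from 1500 to 1750 bases downstream. Next came 9.87% between 250 and 500 bases downstream. Hypomethylated DMCs had their highest share, 15.1%, in the bin 1500 to 1250 bases upstream. In coding promoters the same bins held 6.36% and 1.33% hypermethylated and, for the last, 5.61% hypomethylated DMCs. The coding difference at week 12 was positive from 750 bases upstream to 1750 bases downstream, at 0.12 to 0.57 points. These means weight every position equally, so promoters rich in CpGs dominate the bins near the TSS.

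**Figure D5:**
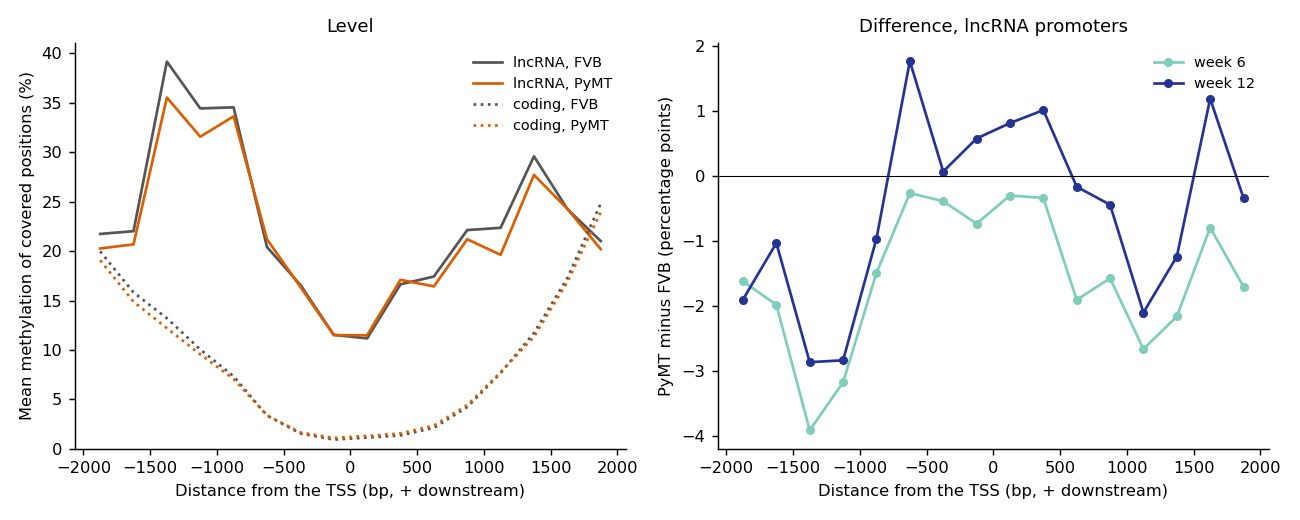
Mean methylation (%) of covered positions in bins of 250 bp by distance from the TSS (bp) in lncRNA and coding promoters of both strains (left), and the difference in lncRNA promoters, PyMT minus FVB in percentage points, at weeks 6 and 12 (right). The level is lowest at the TSS, and the week 12 line lies above 0 near the TSS while the week 6 line lies below it in every bin.

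The few promoters closest to the 2 kb threshold on either side had low levels, apart from 2210039B01Rik, which was called as a loss. Just inside it lay 2210039B01Rik, 2088 bases from the Tmem30b TSS, which stood at 33.9% in FVB and 18.9% in PyMT glands, and Gm7854, 2101 bases from the Cpeb2 TSS, at 0.183% and 0.147%. Next came 9930014A18Rik, 2115 bases from the Lratd2 TSS, at 1.17% and 0.597%. Just outside it lay Hottip, 1895 bases from the Hoxa13 TSS, at 0.849% and 0.604%, and Gm6306, 1855 bases from the Tcp11l1 TSS, at 0.188% and 0.299%. F830208F22Rik, 1840 bases from the Pstpip2 TSS, stood at 5.51% and 2.72%.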

How the data were processed

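ERRBS methylation was analysed in 22 samples (10 PyMT, 12 FVB) in 8 groups of strain and week. Per the labels and the study's methods, the authors aligned reads to mm10 with Bismark (version not given in the sources used here), and deposited for every CpG position with at least 10 reads its coverage as a count of reads and the percent methylated and unmethylated. Methylated reads were recovered here from coverage and percent. RefSeq gene models came from GRCm38.p6, the assembly that mm10 names. For each gene the TSS with the most covered positions was used, and region values are means over positions. Regions were tested with edgeR 4.0.16 (R 4.3.3) on summed reads in 1 fit of all samples, which treats mice as replicates, with Benjamini-Hochberg adjustment over 15279 regions (3 never or always methylated regions were not tested). On simulated data 200 regions, drawn from all classes, were raised in PyMT samples, with the spread of the controls. The averaged comparison recovered 69% of shifts of 10 points and 99% of shifts of 20 points. Losses were not simulated, and recovery was not measured for lncRNA promoters alone. DMCs came from a likelihood-ratio test per position. Alternatives included limma 3.58.1, other coverage, widths, distances and thresholds, a replicate block and each sample left out. Named promoters are the 8 largest called gains and losses over the 4 stages, and members of 4 lists that were called or lay at the ends of their list. The members and lists were chosen with earlier results of these data known. Replicate pairs of a group differed by more than counting noise, at 1.99 to 4.45 chi-square per position. The labels do not state whether samples share a litter or cage. A leukocyte marker list is not reported here.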

Additional observations from a re-analysis of the deposited data

How the results depend on the processing

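Values here are percents of the lncRNA promoters tested (or of their positions) that were called. Narrowing the region to 500 bp on each side left 379 promoters, of which 0.792% gained and 5.01% lost methylation at hyperplasia, 3.17% and 8.97% at adenoma/MIN, and 14.0% and 9.76% lost at early and late carcinoma. Requiring at least 10 positions left 260 promoters, with an FVB median of 3.4%. Losses were 11.2% over the 4 stages, 5.38% at hyperplasia, 7.31% at adenoma/MIN, 8.85% at early carcinoma and 7.31% at late carcinoma. Gains were 1.15% at hyperplasia. With a difference of at least 10 points, gains over the 4 stages were 6.37%. For DMCs, a difference of at least 25 points gave 1.03%, 1.62%, 2.45% and 3.12% hypermethylated and 2.98%, 3.07%, 4.27% and 4.11% hypomethylated positions at the 4 stages in order. Correction for overdispersion gave 1.06%, 2.06%, 3.63% and 4.59% hypermethylated positions at the 4 stages, and 2.80%, 2.93% and 4.41% hypomethylated positions at hyperplasia, adenoma/MIN and late carcinoma. The first demands larger shifts, and the second scales the test down where samples of a strain vary more than read counts would. Leaving out each sample gave 0.319% to 2.23% gains and 3.66% to 11.5% losses at hyperplasia, 2.87% to 6.05% and 9.71% to 15.5% at adenoma/MIN, and 4.94% to 8.44% and 10.5% to 18.8% at late carcinoma. The difference of Snhg17 turned to 0.149 points within 500 bp, where the cause was not tested, and Mir9-3hg, Mir124-2hg, Morrbid, Snhg17 and Snhg11 lie under a threshold of 10 points. Under alternatives other than a left-out sample, 107 percents of regions and 17 of positions stayed within 1.5 times the reported value.

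Samples of the same number in both strains did not deviate together (r from -0.181 to 0.0833 over 10 pairs, across promoters), so the numbers were taken as names only. A fit with a replicate block gave 12.6% gains and 27.2% losses over the 4 stages, with 79 of the 81 gains and 170 of the 171 losses shared, and moved no other percent called by more than 1.5 times.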
